A study of Mus musculus with 12 samples.

Results

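Ruxolitinib, an inhibitor of the kinases JAK1 and JAK2, was compared with vehicle in LSK cells of mouse bone marrow. These cells lack lineage markers and carry Sca-1 and Kit on their surface, and stem cells and multipotent progenitors are found among them. The genes described were all those with a base mean of at least 50 in the authors' deposited table for this comparison and a symbol that does not begin with Igh, Igk or Igl. The base mean is a gene's mean of normalised reads over all libraries of the authors' fit. This gave 11939 of 55487 genes, of which 11933 had an adjusted p. A further 156 immunoglobulin genes at that base mean were left out. Just inside the limit were Pcdhb22 and C2, with base means of 50.2 and 50.3 and log2 fold changes of -0.33 and 0.35 in the authors' deposited table, and just outside it were Zg16 and Epx, at 49.99997 and 49.98 with -1.98 and -3.95.

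The ruxolitinib group and the vehicle group had 3 libraries each. All came from C57BL/6 bone marrow labelled as homozygous JAK2V617F and as transplant material, so the ruxolitinib and the vehicle cells both carried the mutation, and no group without it was used. The labels give no dose, duration, age or donor share for the cells, and whether each of the 3 libraries per group is a different animal is not labelled. The p-values rest on a spread estimated in the authors' fit of 24 libraries, 12 of them outside these groups, and that spread may be technical. Groups treated with palbociclib, an inhibitor of CDK4 and CDK6, and with the combination of both drugs shared the vehicle libraries.

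JAK2 sits on the inner side of receptors for erythropoietin and several interleukins and colony-stimulating factors. A bound receptor activates the kinase, which phosphorylates STAT factors, and these enter the nucleus and switch on target genes, among them the SOCS and Cish genes whose products dampen the same receptors. The mutant kinase signals without a bound ligand, and in people it drives overproduction of red cells, platelets and granulocytes and scarring of the marrow.

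The ruxolitinib libraries held an estimated 21.4, 32.6 and 34.1 M reads in genes and the vehicle libraries 31.5, 31.6 and 34.8 M, worked out from size factors that the deposited base means reveal. Values per library were not used here. Instead, the mean normalised read level of each group was solved from the authors' deposited fold changes and errors, and it is called the modelled level below, with its 95% interval. Levels are not divided by transcript length, so they are compared between groups and not between genes. A gene was said to rise or fall where the adjusted p of the authors' DESeq2 fit was under 0.05. Among the sort genes, Kit had modelled levels of 14933 in ruxolitinib and 14277 in vehicle libraries, Ly6a, which encodes Sca-1, had 1165 and 1004 in the same order of groups, and Cd34 had 22522 and 21071. Neither Kit nor Ly6a passed. Of the 10 genes described from the sort and lineage-depletion list, Ly6e alone passed. It is a separate gene from Ly6a and does not encode Sca-1. Ly6e fell to 21488 in ruxolitinib libraries, against 28727 in vehicle libraries. Ptprc, Flt3, Cd48 and Slamf1 had 6928, 5153, 3277 and 370 in ruxolitinib and 7122, 5741, 3417 and 387 in vehicle libraries. The lineage marker Itgam had 130 in ruxolitinib and 201 in vehicle libraries and did not pass. The lineage genes Cd4, Cd5, Ly6g, Cd3e and Cd8a had base means of 0.442 to 25.0 and stayed under the limit. Y-linked genes were poorly determined: Kdm5d had 499 in ruxolitinib and 225 in vehicle libraries and did not pass, with a log2 fold change of 1.15 and a standard error of 1.05 in the authors' deposited table. Part of any difference in bulk RNA may be fewer cells of a type or less RNA per cell, which cannot be told apart here.

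Under ruxolitinib 127 of the 11933 genes tested rose (1.06%) and 275 fell (2.3%), 402 in either direction (3.37%), and these shares are the background against which each gene group below is read. Over all 15448 genes with an adjusted p, 144 rose (0.932%) and 314 fell (2.03%). The growth factor gene Ptn and the stress kinase gene Mapk12 rose most, and the transporter gene Abcg4, the clotting factor gene F10 and the chemokine gene Ccl6 fell most. Mapk12 had a modelled level of 107 in ruxolitinib and 12.5 in vehicle libraries. Other large rises were those of Npdc1, Ankrd63, Insrr, Mpdz and Shisa8, at 199, 78.9, 131, 176 and 419 in ruxolitinib libraries, against 44.0, 19.2, 33.0, 45.2 and 129 in vehicle libraries. Ltbp4, which binds latent TGF-beta, and Dusp4, which switches off MAP kinases, rose to 115 and 332, against 37.5 and 113 in vehicle libraries. Nsmf and Carmil2, with small errors, rose to 760 and 3892 in ruxolitinib libraries, against 411 and 2028 in vehicle libraries. Other large falls were those of Tlcd4, Paqr9, Nxpe2, Tspo2 and Cited4, to 67.6, 81.5, 82.7, 56.8 and 62.9 in ruxolitinib libraries, against 656, 676, 607, 390.5 and 414 in vehicle libraries. Of the rises 52 (40.9%) and of the falls 142 (51.6%) were at least 2-fold, against 437 of all genes described (3.66%). The median level of the 127 rises was 507 in ruxolitinib and 264 in vehicle libraries, and that of the 275 falls was 621 in ruxolitinib and 1355 in vehicle libraries. The median log2 fold change over all genes was 0.00. The 95% intervals of the 2 levels were apart for all 402 genes that passed and for 645 of all genes described. For the 402 this follows from the call, since intervals and p-values rest on the same deposited errors, and it is no further evidence. Nearest to the limit of the adjusted p were Gdf11 and Pdzd2 inside (0.0499 each in the authors' deposited table) and Crlf2 and Padi2 outside (0.0501 for Padi2).

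**Figure D1:**
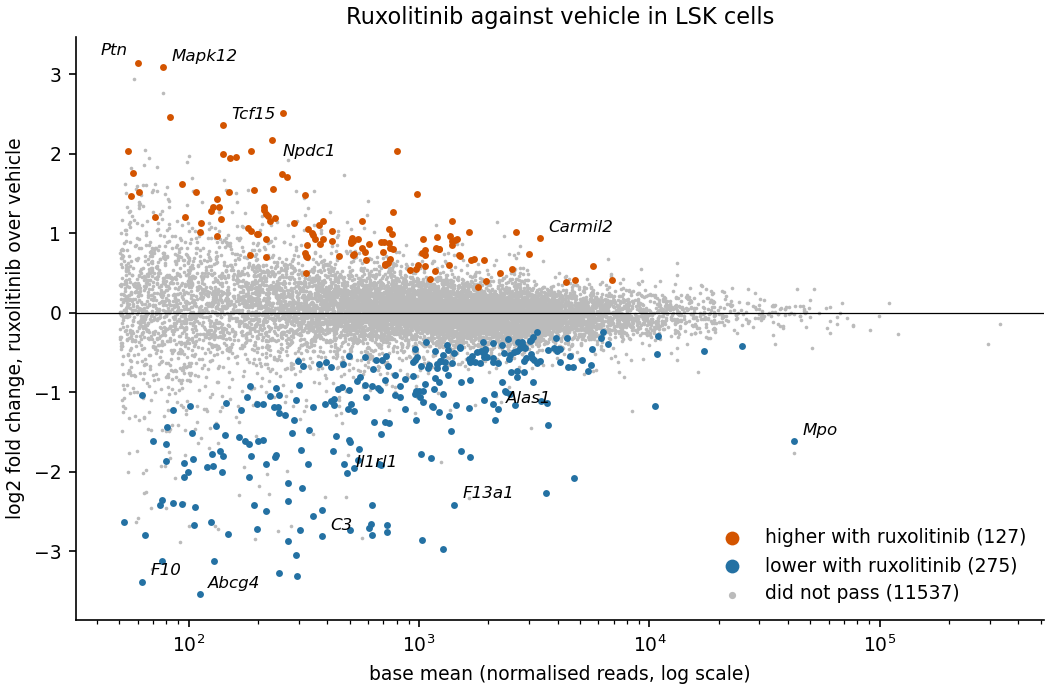
Log2 fold change of ruxolitinib over vehicle (vertical axis) against base mean in normalised reads (horizontal axis, log scale) for each gene described, with genes that rose in orange (127), genes that fell in blue (275) and the rest in grey. The rises reach 3.14 (Ptn), the falls reach -3.54 (Abcg4), and Mpo is a fall at a high base mean.

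Among secreted signals, the largest rise was that of Ptn, which encodes pleiotrophin, a heparin-binding growth factor. Its modelled level was 89.5 (95% interval 56.1 to 142.8) in ruxolitinib and 10.2 (5.80 to 17.9) in vehicle libraries. The authors' deposited table gave a log2 fold change of 3.14 ± 0.54 (standard error, as for all folds below) and an adjusted p of 6.77e-06. Of 45 cytokine and growth factor genes 4 rose (8.89%) and none fell, with a median log2 fold change of 0.22. By an unadjusted p under 0.05, 11 of the 45 differed. Besides Ptn, Tnfsf9, the ligand of the costimulatory receptor 4-1BB, had 131 in ruxolitinib and 64.7 in vehicle libraries. Bmp1 is counted among the 4 rises but is a protease that trims procollagens and not a growth factor. It had 575 in ruxolitinib and 317 in vehicle libraries, and Gdf11, a TGF-beta family ligand, had 82.2 and 35.6. Angpt1, the ligand of the Tie2 receptor, had 13201 in ruxolitinib and 9477 in vehicle libraries and did not pass, with an adjusted p of 0.194 in the authors' deposited table.

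Matrix genes moved in both directions. Of 43 collagen, laminin and remodelling genes 3 rose (6.98%) and 2 fell (4.65%), with a median log2 fold change of 0.15. Col4a1 and Col4a2 encode the paired chains of basement membrane collagen IV. Col4a1 had a modelled level of 1429 (1181 to 1729) in ruxolitinib and 789 (652 to 956) in vehicle libraries, and Col4a2 had 1436 (1148 to 1795) and 752 (600.4 to 942). Their log2 fold changes in the authors' deposited table, 0.86 ± 0.20 and 0.93 ± 0.23, differed by less than either error. The 2 genes lie head to head on chromosome 8 and their annotated starts are 21 bases apart, so that 78 bases of their 300-base start-site windows are shared. Reads at the overlapping starts could not be assigned to a gene without strand, whose use is not given in the sources used here. The Col4a1 window is shown because both genes of this head-to-head pair rose. It covers chr8:11312777-11313076 on the minus strand (RefSeq, GRCm38.p6, 250 bases before to 50 after the start), with the bases from the Col4a1 start to the Col4a2 start in capitals, and 1 of the 8 Col4a1 transcripts in GENCODE begins in it.
Col4a1: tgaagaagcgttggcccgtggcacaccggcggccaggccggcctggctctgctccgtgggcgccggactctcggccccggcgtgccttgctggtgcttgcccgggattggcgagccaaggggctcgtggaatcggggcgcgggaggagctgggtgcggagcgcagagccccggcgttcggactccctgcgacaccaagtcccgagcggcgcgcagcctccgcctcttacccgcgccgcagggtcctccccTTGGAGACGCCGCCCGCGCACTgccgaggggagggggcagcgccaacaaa
The third rise in the group was Col16a1, a collagen that sits along fibrils, at 828 (591 to 1160) in ruxolitinib and 294 (209 to 414) in vehicle libraries. Col5a1, a fibril-forming collagen, fell to 86.0 in ruxolitinib libraries, against 461 in vehicle libraries. Adam17, the protease that sheds TNF and other membrane proteins, fell to 2705 in ruxolitinib libraries, against 3693 in vehicle libraries, a modest change with narrow intervals (2490 to 2939 against 3403 to 4008).

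Marker genes of stroma and endothelium were scarce: 5 of the 16 listed reached the limit, with a summed level of 7803 in ruxolitinib and 9454 in vehicle libraries. Col1a1, Cxcl12, Cdh5 and Lepr had base means of 37.0, 28.3, 6.58 and 2.76. The part of such cells in the matrix changes was not tested.

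Several further rises encode membrane scaffolds and adhesion proteins. Cavin1 and Cavin3, coat proteins of the small surface pits called caveolae, had 1556 and 236.1 in ruxolitinib libraries, against 702 and 57.9 in vehicle libraries. Cavin2 had 581 in ruxolitinib and 288 in vehicle libraries and did not pass, with an adjusted p of 0.643 in the authors' deposited table. Among 38 selectin, cadherin and cell adhesion genes Bcam and Mpzl1 rose and Cd47, Cd82 and Pecam1 fell, with a median log2 fold change of -0.05. Bcam, a laminin receptor, had 207 (139 to 307) in ruxolitinib and 70.9 (47.2 to 106.7) in vehicle libraries. Cd47, the signal that shields a cell from being eaten by macrophages, fell to 16041 (14516 to 17726) in ruxolitinib libraries, against 22417 (20289 to 24768) in vehicle libraries. None of 17 integrin genes passed in the authors' DESeq2 fit and 2 had an unadjusted p under 0.05.

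**Figure D2:**
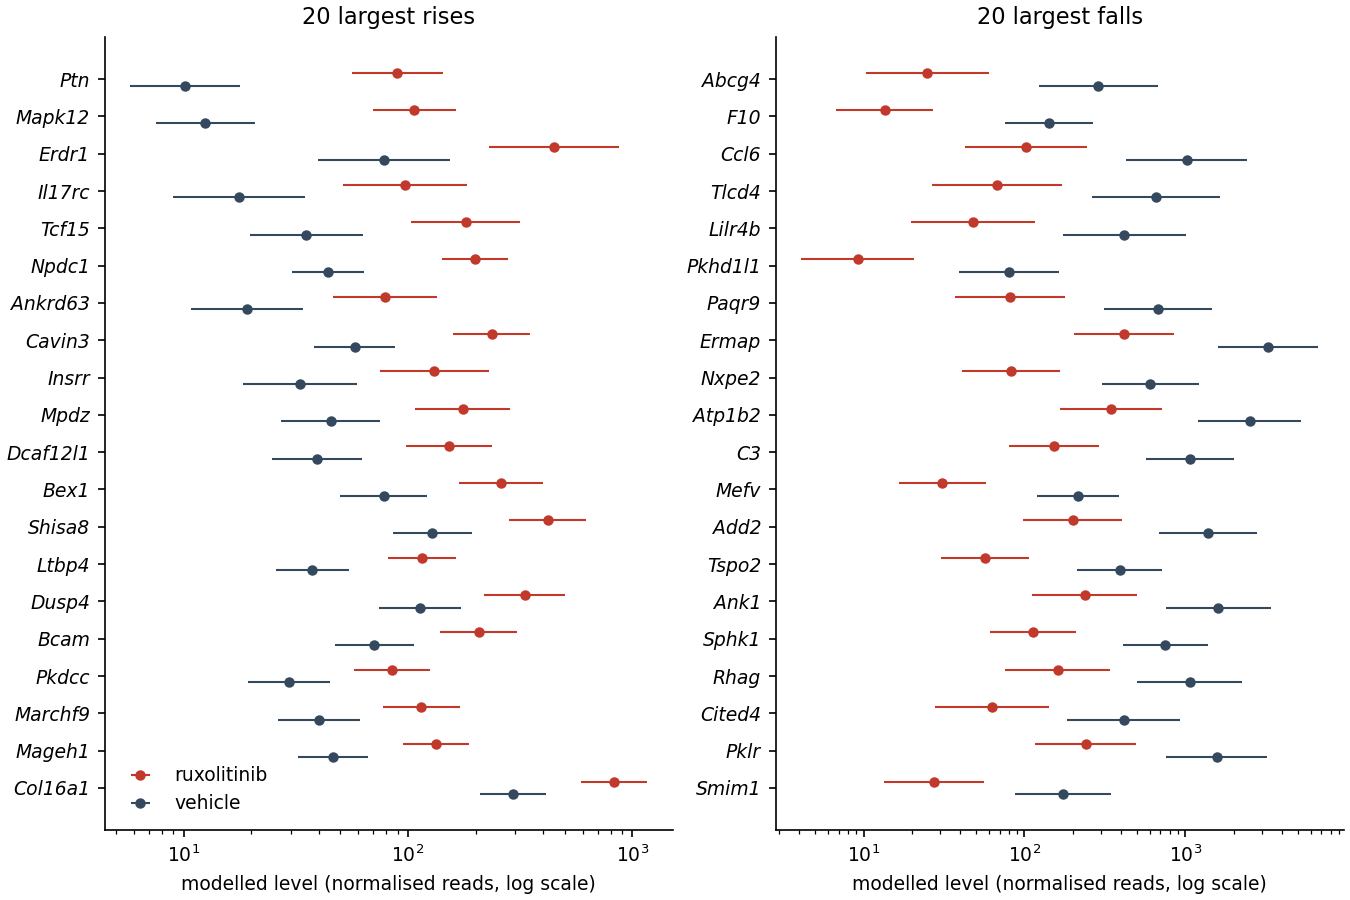
Modelled levels in normalised reads (log scale) of the 20 largest rises (left) and 20 largest falls (right), with ruxolitinib in red above vehicle in dark blue and bars giving the 95% interval of each level. The intervals of each pair are apart, which holds for any gene that passed. Ptn at the top left has 89.5 in ruxolitinib and 10.2 in vehicle libraries. Smim1 at the bottom right has 27.3 in ruxolitinib and 174 in vehicle libraries.

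Receptors for cytokines mostly leaned down. Of 39 such genes 1 rose (2.56%) and 7 fell (17.9%), and the median log2 fold change was -0.14. Csf2rb, the beta chain shared by the receptors for IL-3, IL-5 and GM-CSF, which signals through JAK2, fell to 2541 (1981 to 3259) in ruxolitinib libraries, against 5497 (4288 to 7047) in vehicle libraries. Csf2rb2, a neighbouring and closely similar gene with which it could share reads, fell to 437, against 1254 in vehicle libraries. The alpha chains Il3ra and Csf2ra had 925 and 930.2 in ruxolitinib and 995 and 839.7 in vehicle libraries and did not pass.

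The receptor for interferon gamma and that for IL-6 had falls of their own. Ifngr1 fell to 2564 (2184 to 3010) in ruxolitinib libraries, against 4672 (3983 to 5481) in vehicle libraries, a log2 fold change of -0.87 ± 0.17 in the authors' deposited table (adjusted p = 0.000141). Ifngr2, its partner chain, had 652 in ruxolitinib and 1000.1 in vehicle libraries with an adjusted p of 0.0533 in the authors' deposited table. Il6ra fell to 952 in ruxolitinib libraries, against 1687 in vehicle libraries, and its signalling partner Il6st, also called gp130, fell to 1812, against 2659 in vehicle libraries. None of 43 interferon-stimulated genes passed, with a median log2 fold change of 0.05 and 3 with an unadjusted p under 0.05.

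Receptors of single lineages differed among themselves. Il1rl1, the receptor for IL-33 on mast cells and basophils, fell to 261 (194 to 351) in ruxolitinib libraries, against 1053 (788 to 1408) in vehicle libraries, and its adjusted p of 1.69e-07 in the authors' deposited table was smaller than that of any other gene described except Trbv13-2. Csf1r, the receptor for the macrophage growth factor M-CSF, fell to 422 (303 to 587) in ruxolitinib libraries, against 1595 (1150 to 2214) in vehicle libraries. Epor, the erythropoietin receptor, had 287.5 in ruxolitinib and 692 in vehicle libraries and stayed above the limit with an adjusted p of 0.0678 in the authors' deposited table. Il17rc, a chain of the receptor for IL-17, was the sole rise of the group, at 97.1 (51.3 to 184) in ruxolitinib and 17.6 (8.96 to 34.7) in vehicle libraries.

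Receptors that guide leukocytes to chemokines and lipids showed 5 falls and no rise among 32 genes (15.6%), with a median log2 fold change of -0.19. Cxcr2, the neutrophil receptor for ELR chemokines, fell to 142 (96.9 to 207) in ruxolitinib libraries, against 531 (366 to 769) in vehicle libraries. Ccr2, which draws monocytes out of the marrow, fell to 829 in ruxolitinib libraries, against 2944 in vehicle libraries. Cx3cr1, Ccr1 and the leukotriene B4 receptor Ltb4r1 fell to 154, 46.6 and 111 in ruxolitinib libraries, against 545, 187 and 338 in vehicle libraries. Cxcr4, which holds stem cells in the marrow, had 3107 in ruxolitinib and 3653 in vehicle libraries and did not pass. The chemokine genes themselves were few: of 7 described, Ccl6 and Ccl9 fell and the median log2 fold change was 0.34. Ccl6 and Ccl9 are macrophage chemokines encoded 9246 bases apart on chromosome 11. Ccl6 fell to 102 (42.7 to 245) in ruxolitinib libraries, against 1019 (429 to 2425) in vehicle libraries, and Ccl9 to 1908 (1469 to 2478), against 5065 (3902 to 6573).

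Innate immune receptors were the surface group with the largest share of falls in these lists, 13 of 41 genes (31.7%), with no rise, a median log2 fold change of -0.59 and 39 of the 41 values below 0. Among them were 5 Fc receptor chains. Fcer1g, the signalling gamma chain used by several Fc receptors, fell to 269 (203 to 356) in ruxolitinib libraries, against 615 (467 to 809) in vehicle libraries. Fcer1a and Ms4a2, the alpha and beta chains of the high-affinity IgE receptor of mast cells and basophils, fell to 238 and 309 in ruxolitinib libraries, against 782 and 1027 in vehicle libraries. The IgG receptors Fcgr3 and Fcgr2b fell to 111 and 469.5 in ruxolitinib libraries, against 626 and 884 in vehicle libraries.

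Tyrobp, the adaptor DAP12 that carries signals for many myeloid receptors, fell to 547 (427 to 701) in ruxolitinib libraries, against 1120 (877 to 1430) in vehicle libraries. The lectins Clec5a, which signals through that adaptor, and Clec12a, which inhibits, fell to 61.8 and 1135 in ruxolitinib libraries, against 335.5 and 2709 in vehicle libraries. Mefv, which encodes the inflammasome sensor pyrin, fell to 30.9 in ruxolitinib libraries, against 215 in vehicle libraries. Pyrin acts inside the cell, but Mefv is counted among the 13 falls of the group. The Toll-like receptors Tlr2 and Tlr4 had 333 and 327 in ruxolitinib and 441 and 360.1 in vehicle libraries, and neither passed.

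Lilr4b, a receptor of the leukocyte immunoglobulin-like family, had the largest fall of the group, to 47.8 (19.7 to 116) in ruxolitinib libraries, against 418 (174.5 to 1003) in vehicle libraries. Its near copy Lilrb4a had 32.8 in ruxolitinib and 197 in vehicle libraries with an adjusted p of 0.0898 in the authors' deposited table, and reads of the pair could be split. A Lilr4b start-site window (RefSeq, GRCm38.p6, chr10:51480362-51480661, plus strand) is shown because it holds a match, in capitals, to TTCNNNGAA, the spacing that STAT dimers bind. Of 13 Lilr4b transcripts in GENCODE 1 begins in this window, so it is only one of the gene's annotated starts.
Lilr4b: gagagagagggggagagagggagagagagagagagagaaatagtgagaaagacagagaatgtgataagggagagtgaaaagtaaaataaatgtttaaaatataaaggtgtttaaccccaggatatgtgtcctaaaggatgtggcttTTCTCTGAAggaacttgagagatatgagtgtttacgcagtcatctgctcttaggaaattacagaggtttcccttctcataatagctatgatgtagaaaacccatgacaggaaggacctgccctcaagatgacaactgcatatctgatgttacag
Such a match, which reads the same way on both strands, was held by 3 of the 93 rises with a window (3.23%) and 12 of the 216 falls with a window (5.56%), against 636 of the 9263 genes described that had one (6.87%) and 2288 of all 27025 promoters (8.47%). The share among rises and among falls was thus no higher than over all genes.

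The markers of dendritic cells, macrophages and monocytes had 9 falls among 16 (56.2%), and their summed level was 19359 in ruxolitinib and 34462 in vehicle libraries. The receptor and chemokine groups above hold 6 of the 16, and of the other 10 markers 4 fell, Cybb, F13a1, Irf8 and Ly6c2, with a sum of 12590 in ruxolitinib and 22238 in vehicle libraries. Of the mast cell, basophil and eosinophil markers 5 of 13 fell, with a summed level of 19017 in ruxolitinib and 27446 in vehicle libraries. Without the 4 that are also receptors above, 2 of 9 fell, Cpa3 and Hdc, and the sum was 18159 in ruxolitinib and 24317 in vehicle libraries. Cd14, Siglech and Cd209a had base means of 20.8, 2.13 and 1.43. How much of the receptor falls came with such cells was not tested.

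**Figure D3:**
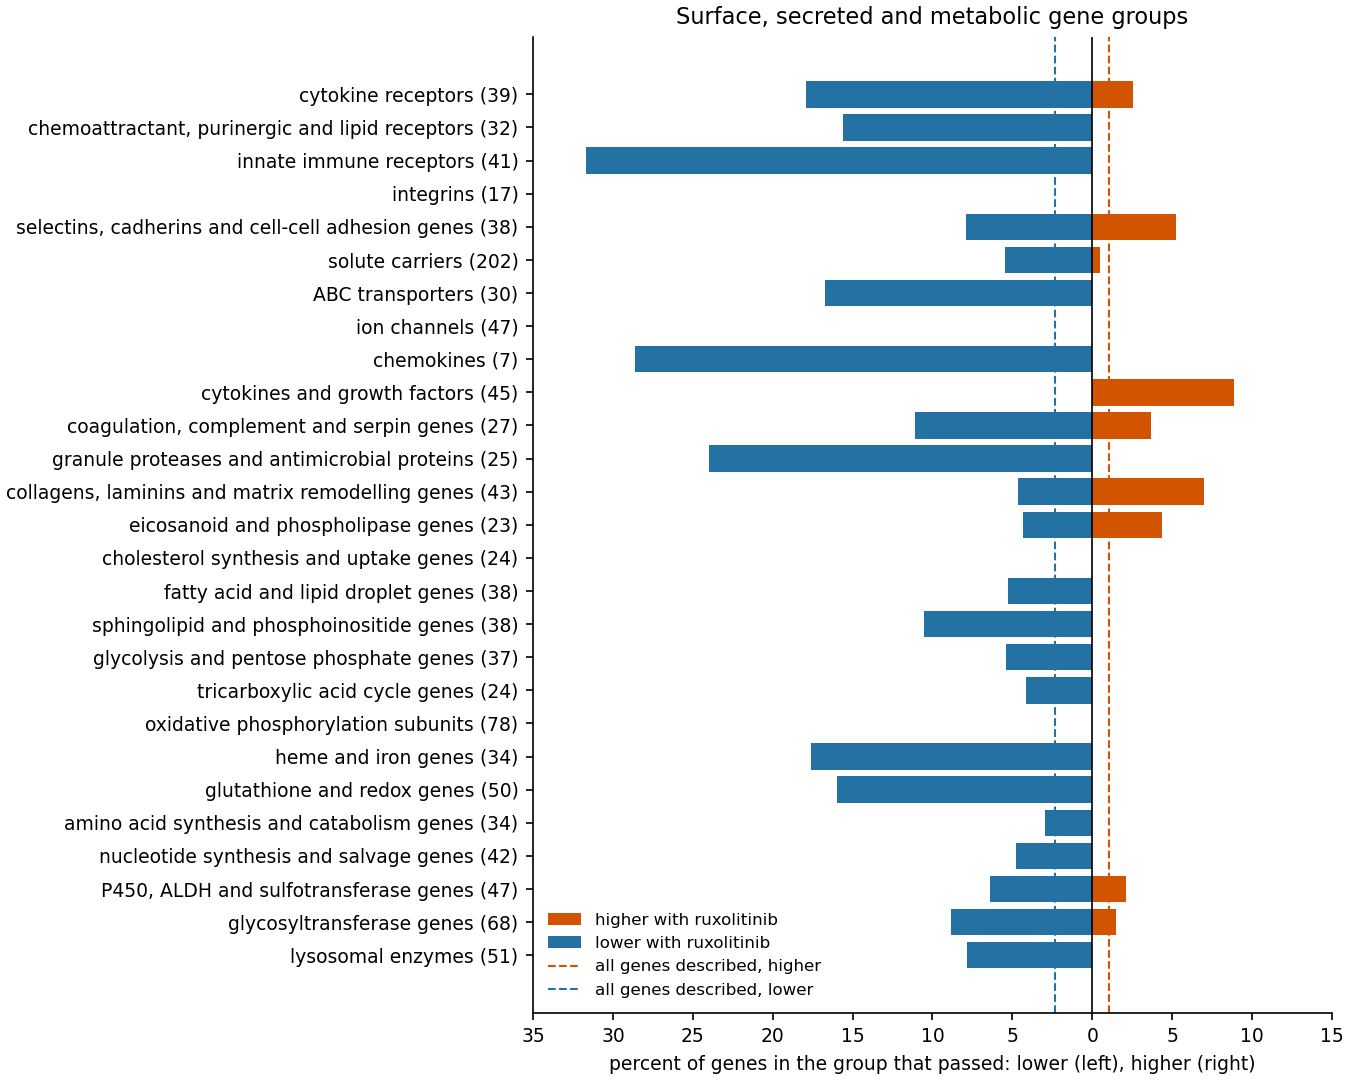
Share of the genes in each surface, secreted and metabolic group that rose (orange, right) or fell (blue, left) with ruxolitinib, in percent, with the number of genes described in brackets and dashed lines for all genes described (1.06% and 2.3%). Innate immune receptors, chemokines and granule proteins have the longest bars on the left, and cytokines and growth factors the longest on the right. The surface groups also hold genes of proteins inside the cell, such as Mefv, Slc25a38 and Abcb10.

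Granule and antimicrobial proteins showed 6 falls among 25 genes, no rise and a median log2 fold change of -1.18. Mpo, the peroxidase of the primary granules, had 32065 (20734 to 49588) in ruxolitinib and 98091 (63431 to 151690) in vehicle libraries. Prtn3 and Elane, serine proteases of the same granules whose genes lie 3073 bases apart on chromosome 10, fell to 8078 and 2067 in ruxolitinib libraries, against 18249 and 9951 in vehicle libraries. Cpa3, a mast cell carboxypeptidase, fell to 1237 in ruxolitinib libraries, against 2225 in vehicle libraries, and Pglyrp1, which binds bacterial walls, to 206, against 457. Of 18 granulocyte markers 7 fell, with a summed level of 55535 in ruxolitinib and 154570 in vehicle libraries, but 11 of the 18, Mpo, Prtn3 and Elane included, are themselves granule genes. Of the other 7 markers 4 fell, Cxcr2, Gstm1, Ltb4r1 and Ms4a3, and their sum was 6625 in ruxolitinib and 12338 in vehicle libraries. Ltf, Ngp, Camp and Mmp9 of the late granules had levels of 1.53 to 11.04 over both groups. They reached the base mean limit only through libraries of the fit outside these groups, and they count among the 25 and the 18. For Ltf, Ngp and Camp the palbociclib values are given below with Cxcr2. Of all genes described 180 had both levels under 50, and none of the 180 passed. The part of granulocytes in the falls was not tested.

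Blood plasma protein genes were also among the largest falls. F10, coagulation factor X, fell to 13.6 (6.78 to 27.2) in ruxolitinib libraries, against 142 (75.6 to 266) in vehicle libraries. F13a1, the clot-crosslinking factor XIII chain made by monocytes, fell to 730 (444.5 to 1199), against 3890 (2372 to 6378) in vehicle libraries. C3, the central complement component, fell to 153 (80.6 to 290) in ruxolitinib libraries, against 1072 (569 to 2021) in vehicle libraries, and Hp, which encodes the haemoglobin-binding haptoglobin, fell to 295, against 1874. Of the 27 coagulation, complement and serpin genes 3 fell (11.1%) and Procr, the protein C receptor that also marks stem cells, rose to 592, against 285 in vehicle libraries.

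Heme and iron genes contributed 6 falls and no rise among 34 (17.6%), with a median log2 fold change of -0.24. Hp, given with the plasma proteins, is 1 of these 6 and is also counted among the granule gene falls. Alas1, the enzyme of the committed step of heme synthesis outside red cells, fell to 1723 (1401 to 2120) in ruxolitinib libraries, against 3998 (3253 to 4913) in vehicle libraries, a log2 fold change of -1.21 ± 0.22 in the authors' deposited table (adjusted p = 1.7e-05). Cpox, a later enzyme of the route, fell to 1751 in ruxolitinib libraries, against 3902 in vehicle libraries. Slc25a38, the mitochondrial carrier that brings glycine to it, fell to 475 in ruxolitinib libraries, against 773 in vehicle libraries, and Abcb10, a mitochondrial transporter of the erythroid lineage, to 1121, against 1598. Alas2, the red cell form of the committed enzyme, was low and very uncertain at 57.4 in ruxolitinib and 27.4 in vehicle libraries. Slc40a1, which encodes the iron exporter ferroportin, fell to 137 (83.7 to 225) in ruxolitinib libraries, against 605.5 (372 to 985) in vehicle libraries. Tfrc, the transferrin receptor for iron uptake, had 5950 in ruxolitinib and 9996 in vehicle libraries and did not pass (adjusted p = 0.533 in the authors' deposited table).

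Red cell surface and skeleton genes were spread over the largest falls. Ermap, an erythroid membrane protein, fell to 417 (203 to 854) in ruxolitinib libraries, against 3261 (1595 to 6668) in vehicle libraries. Rhag, the Rh-associated glycoprotein, and the skeleton genes Ank1, Add2 and Sptb fell to 161, 237, 199.8 and 159.8 in ruxolitinib libraries, against 1067, 1603, 1388 and 1012 in vehicle libraries. Pklr, the red cell and liver pyruvate kinase, fell to 239.8 (116 to 496) in ruxolitinib libraries, against 1570 (762 to 3234) in vehicle libraries. Of the 29 erythroid markers 11 fell (37.9%) and none rose. The summed level of the 29 was 26989 in ruxolitinib and 60065 in vehicle libraries. The 11 were Ermap, Rhag, Ank1, Sptb, Atp1b2, Tspo2, Nxpe2, Sphk1, Car1, Gata1 and Klf1. The part of erythroid cells in the falls was not tested. Globin genes of the terminal stage did not pass: Hbb-bs had 464 in ruxolitinib and 296 in vehicle libraries and Hba-a1 had 285 and 233, with adjusted p-values of 0.883 and 0.955 in the authors' deposited table.

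The Pklr window (RefSeq, GRCm38.p6, chr3:89135892-89136191, plus strand) is shown because it holds the letters AGATAA, in capitals, a form of the site that the erythroid factor GATA1 binds. Of 5 Pklr transcripts in GENCODE 1 begins in it.
Pklr: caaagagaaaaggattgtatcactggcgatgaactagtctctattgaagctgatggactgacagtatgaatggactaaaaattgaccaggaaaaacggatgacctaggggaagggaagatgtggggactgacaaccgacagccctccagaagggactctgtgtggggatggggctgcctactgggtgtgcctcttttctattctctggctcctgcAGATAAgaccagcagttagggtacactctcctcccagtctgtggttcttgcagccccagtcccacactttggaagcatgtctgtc
Those letters, on either strand, were in 21 of the 216 windows of falls (9.72%), in 6 of 93 windows of rises (6.45%), in 6 of 21 windows of erythroid markers (28.6%) and in 571 of 9263 windows of the genes described (6.16%), against 3083 of all 27025 promoters (11.4%). The motif searches were separate, and a match is a description of letters and not of binding. Gata1 itself fell to 901 (711 to 1142) in ruxolitinib libraries, against 1835 (1450 to 2321) in vehicle libraries, and Klf1, the other master factor of red cells, fell to 319.5, against 1199.

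Of 66 blood transcription factors, Gata1 and Klf1 included, 1 rose (1.52%) and 7 fell (10.6%). Tcf15, a factor that marks quiescent stem cells, rose to 181 (103.5 to 315) in ruxolitinib libraries, against 35.2 (19.7 to 62.8) in vehicle libraries. Irf8, which directs monocyte and dendritic cell fate, fell to 1770 in ruxolitinib libraries, against 3804 in vehicle libraries. Zeb2 and Klf13 fell to 2498 and 2409 in ruxolitinib libraries, against 4182 and 3571 in vehicle libraries. Cebpa and Spi1, which drive the myeloid programme, had 2919 and 3120.1 in ruxolitinib and 4740.1 and 3853 in vehicle libraries and did not pass (adjusted p of 0.158 and 0.285 in the authors' deposited table). Gata2 and Lmo2, factors of the stem and progenitor state, had 8203 and 18704 in ruxolitinib and 7258 and 15795 in vehicle libraries and did not pass. Of 23 stem cell markers 5 rose (21.7%) and none fell, with a summed level of 24938 in ruxolitinib and 17502 in vehicle libraries. The rises were Tcf15, Fgd5, Cdkn1c, Procr and Tie1, the last a receptor-like kinase of stem and endothelial cells at 2431 in ruxolitinib and 1207 in vehicle libraries.

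Redox genes held 8 falls among 50 and no rise, with a median log2 fold change of -0.13. Gsr, which regenerates glutathione, fell to 2530 (2243 to 2854) in ruxolitinib libraries, against 4193 (3721 to 4725) in vehicle libraries, and its log2 fold change of -0.73 ± 0.12 in the authors' deposited table had an adjusted p of 6.77e-06. Nfe2l2, the factor NRF2 that switches on glutathione genes, fell to 2387 in ruxolitinib libraries, against 3335 in vehicle libraries, and Gclm, a subunit of the enzyme that starts glutathione synthesis, to 3791, against 5510. Gclc, its catalytic partner, and Nqo1, another NRF2 target, had 2398 and 176 in ruxolitinib and 2832 and 223 in vehicle libraries and did not pass. The phagocyte oxidase subunits Cybb and Ncf1 fell to 140.1 (75.4 to 260.3) and 2188 in ruxolitinib libraries, against 822 (445 to 1518) and 4017 in vehicle libraries. Gstm1, a glutathione transferase, fell to 1394 in ruxolitinib libraries, against 3093 in vehicle libraries.

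Central energy metabolism was little changed by count. None of 78 oxidative phosphorylation genes and none of 24 cholesterol genes passed in the authors' DESeq2 fit, and none of either list had an unadjusted p under 0.05. The medians of their log2 fold changes were 0.08 and 0.03. In glycolysis and the pentose phosphate route 2 of 37 genes fell, Pklr and G6pdx, the entry enzyme of the pentose phosphate route, at 2267 in ruxolitinib and 3210.0 in vehicle libraries. Of 24 tricarboxylic acid cycle genes Idh1 fell, to 746 (612 to 910.5) in ruxolitinib libraries, against 1678 (1379 to 2042) in vehicle libraries. It encodes the cytosolic isocitrate dehydrogenase, which makes NADPH, and its adjusted p was 1.44e-05 in the authors' deposited table. Hdc, which makes histamine, was the sole call among 34 amino acid genes and fell to 313 in ruxolitinib libraries, against 1168 in vehicle libraries. In nucleotide metabolism Ampd3, the red cell AMP deaminase, and Xdh, xanthine dehydrogenase, fell to 175 and 112 in ruxolitinib libraries, against 485 and 353 in vehicle libraries.

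Lipid and glycan enzymes gave scattered falls. Of 38 sphingolipid and phosphoinositide genes 4 fell (10.5%) and none rose. Ugcg, which makes the founding glycolipid glucosylceramide, fell to 2284 (1969 to 2650) in ruxolitinib libraries, against 3998 (3449 to 4635) in vehicle libraries, and Cers6, a ceramide synthase, to 1019, against 1592. Sphk1, which makes sphingosine 1-phosphate, fell to 113 in ruxolitinib libraries, against 752.5 in vehicle libraries, and Sgms2, a sphingomyelin synthase, to 45.0, against 240.3. Among 68 glycosyltransferase genes 6 fell (8.82%) and Galnt12, which starts O-linked chains, rose to 502.5, against 264 in vehicle libraries. The sialyltransferases St3gal5 and St3gal6 fell to 226 and 93.6 in ruxolitinib libraries, against 482 and 323.5 in vehicle libraries. B4galt1, which adds galactose to N-glycans, fell to 2748 in ruxolitinib libraries, against 4135 in vehicle libraries. Of 51 lysosomal genes 4 fell and 41 had a log2 fold change below 0, with a median of -0.25. Lamp2, a lysosomal membrane protein, had the smallest error of these at 5692 (5341 to 6065) in ruxolitinib and 6743 (6331 to 7183) in vehicle libraries.

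Transporters gave more falls than rises. Of 202 solute carriers 1 rose (0.495%) and 11 fell (5.45%), with a median log2 fold change of -0.02, and of 30 ABC transporters 5 fell (16.7%). None of 47 ion channels passed in the authors' DESeq2 fit, while 12 had an unadjusted p under 0.05. Abcg4, a sterol exporter, had the largest fall of all named genes, to 24.8 (10.3 to 59.8) in ruxolitinib libraries, against 288 (123 to 675) in vehicle libraries, with a wide error (-3.54 ± 0.90 in the authors' deposited table, adjusted p = 0.00839). Abcb4, a phospholipid flippase, fell to 567 in ruxolitinib libraries, against 1940 in vehicle libraries. Slc16a10, an aromatic amino acid carrier, fell to 1144 (1017 to 1287) in ruxolitinib libraries, against 1767 (1574 to 1983) in vehicle libraries. Slc39a4 and Slc39a8, zinc importers, fell to 63.6 and 668 in ruxolitinib libraries, against 144 and 1007 in vehicle libraries. Slc22a17, a lipocalin receptor, was the carrier that rose, to 260.5 in ruxolitinib libraries, against 133 in vehicle libraries.

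The drug's own pathway showed no called change in its kinases, STAT factors, SOCS genes and adaptors. Receptor chains, such as Csf2rb, which fell, are not in this list and are given above. None of 33 JAK, STAT, SOCS and adaptor genes passed in the authors' DESeq2 fit, 4 had an unadjusted p under 0.05 and their median log2 fold change was -0.08. Jak1, Jak2, Jak3 and Tyk2 had 9321, 2249, 6230 and 2098 in ruxolitinib and 9412, 2760, 4785 and 2171 in vehicle libraries. Stat3, Stat5a and Stat5b had 6396, 4635 and 5230 in ruxolitinib and 7175, 4750 and 6012 in vehicle libraries. Stat2, Stat4 and Stat6 had 1165, 824 and 2877 in ruxolitinib and 1331, 807 and 3141 in vehicle libraries. Socs1, Socs4, Socs5, Socs6 and Socs7 had 182, 2474, 1470, 1405 and 1635 in ruxolitinib and 155, 2610, 1162, 1546 and 1924 in vehicle libraries. Of the adaptors, Cblb, a ubiquitin ligase, had the smallest adjusted p in the list, 0.125 in the authors' deposited table, with 947 in ruxolitinib and 1336 in vehicle libraries. The feedback genes were unevenly placed and poorly determined. Socs3 had 353 in ruxolitinib and 602 in vehicle libraries, and Socs2 had 677 and 365, with log2 fold changes of -0.77 ± 0.67 and 0.89 ± 0.63 in the authors' deposited table. Cish had 361 in ruxolitinib and 394 in vehicle libraries (-0.13 ± 0.42 in the authors' deposited table). Of 30 listed JAK-STAT targets Irs2, an adaptor of insulin receptors, and Cebpd, a myeloid factor, fell to 365.5 and 156 in ruxolitinib libraries, against 859.5 and 320.5 in vehicle libraries (6.67%). The abundant targets Myc and Pim1 had 11503 and 7640 in ruxolitinib and 12478 and 9296 in vehicle libraries and did not pass.

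Some genes that changed lay next to each other. Pairs of 1 family or cluster that both fell were Prtn3 and Elane, Ccl9 and Ccl6, Ms4a2 and Ms4a3, Fcgr2b and Fcgr3, and Csf2rb2 and Csf2rb, whose similar sequences may share reads. Tnfsf9 and C3, 96213 bases apart on chromosome 17, moved in opposite directions, as did Rcor2 and Mark2, 171 bases apart on chromosome 19. Rcor2, a corepressor, rose to 725 in ruxolitinib libraries, against 411 in vehicle libraries, and Mark2, a polarity kinase, fell to 3250 (0.82 and -0.24 in the authors' deposited table), against 3846.

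To see which changes differed from those under palbociclib, the fold changes of the drugs were subtracted. Against vehicle 603 genes rose (5.05%) and 532 fell (4.46%) under palbociclib, and 1712 rose (14.3%) and 1821 fell (15.3%) under the combination. Since the drugs were set against the same vehicle libraries, the sign and count of shared changes are no result, and the values are given side by side. Ptn had log2 fold changes of 3.14 ± 0.54 under ruxolitinib, 2.92 ± 0.54 under palbociclib and 3.11 ± 0.54 under the combination in the authors' deposited table, and Csf1r had -1.92 ± 0.34, -2.23 ± 0.34 and -2.57 ± 0.35. Of all genes described, 5 were higher and 5 lower under ruxolitinib than under palbociclib (0.0419% each), and 4 of the 5 higher were the Y-linked genes Kdm5d, Uty, Ddx3y and Eif2s3y. These were nearly absent under palbociclib and did not pass for ruxolitinib against vehicle. Kdm5d had levels of 499 in ruxolitinib, 0.711 in palbociclib and 225 in vehicle libraries, and Ddx3y had 1114, 4.03 and 422 in the same order of groups. The sex of the cells in each library was not tested, and a drug effect on these genes cannot be told apart from it. Of the 402 genes that had passed against vehicle, Cxcr2 alone differed. The authors' deposited table gave it -1.91 ± 0.39 under ruxolitinib and 0.31 ± 0.39 under palbociclib, a difference of -2.22 ± 0.55 (adjusted p = 0.0383, normal test on the deposited estimates). Its level was 142 in ruxolitinib, 658 in palbociclib and 531 in vehicle libraries.

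That test ignores the covariance that the shared vehicle libraries give and so is cautious. With the variance of each group recovered from the deposited errors, an alternative added after seeing the data, 104 of all genes described differed from palbociclib. Of the 104, 24 were higher and 80 lower under ruxolitinib. Among them were 10 of the falls and none of the rises. The falls were picked for low ruxolitinib estimates, which also enter the subtraction, so this split is partly built in and is no result. The 10 were Cxcr2 and the mast cell genes Cpa3 and Fcer1a, the antimicrobial or protease-inhibitor genes Pglyrp1 and Slpi, and Ly6a2, Mocos, Pkhd1l1, Trp53inp2 and Ypel2. Fcer1a had -1.72 ± 0.42 under ruxolitinib, 0.12 ± 0.42 under palbociclib and 0.24 ± 0.42 under the combination in the authors' deposited table. Slpi, a secreted inhibitor of elastase, had levels of 148 under ruxolitinib, 438 under palbociclib, 783 under the combination and 575 in vehicle libraries. Pkhd1l1, a large membrane protein, had -3.13 ± 0.79, -0.24 ± 0.75 and 0.95 ± 0.75 in the authors' deposited table, and its level was 9.18 in ruxolitinib and 80.1 in vehicle libraries. Ccl9, shown in the plot of the drugs, had -1.41 ± 0.27, -0.57 ± 0.27 and -0.06 ± 0.27 in the authors' deposited table and was not among the 10.

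**Figure D4:**
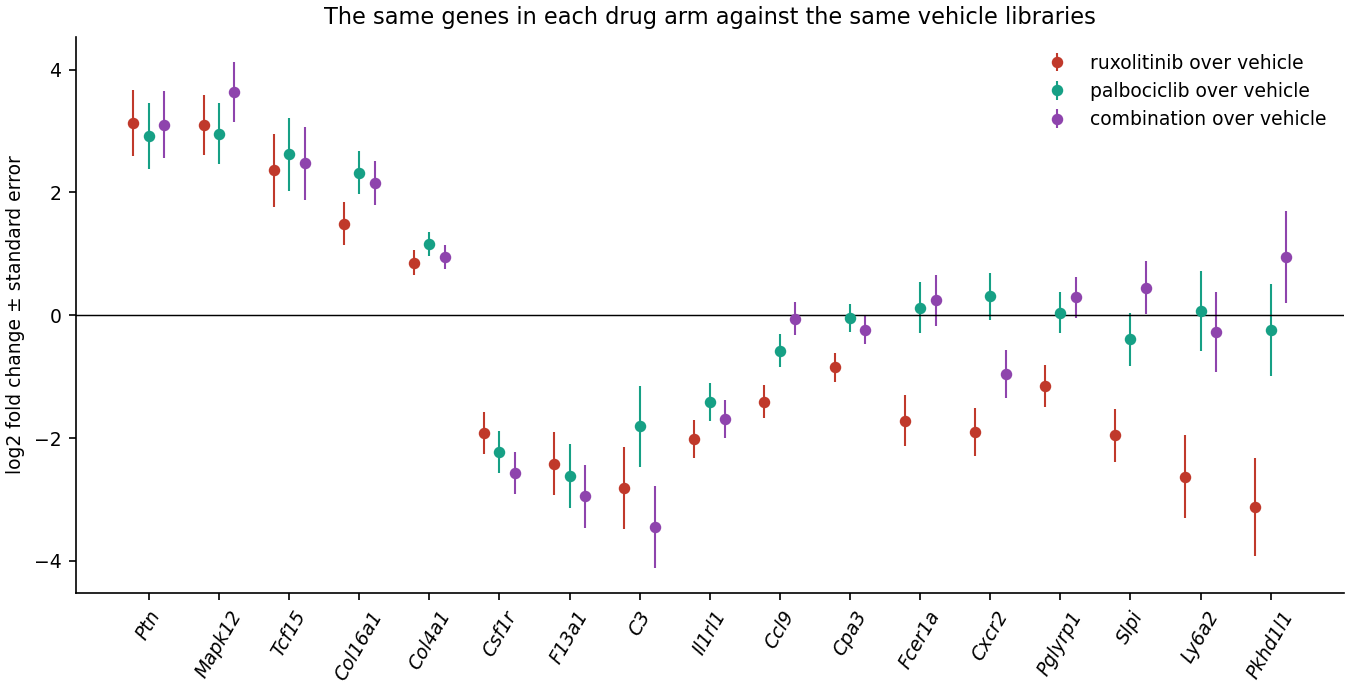
Log2 fold change over vehicle with its standard error (vertical axis) under ruxolitinib, palbociclib and the combination for 17 genes chosen after their values were seen, as deposited by the authors. The 5 rises on the left are above 0 under each drug, and Cxcr2, Fcer1a, Slpi, Ly6a2 and Pkhd1l1 lie below 0 under ruxolitinib and within 1 standard error of 0 under palbociclib.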

How the data were processed

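PolyA RNA of sorted LSK cells was sequenced in 12 libraries of 4 groups of 3, grouped by the labelled treatment. Per the submitters' processing notes, reads were handled with HISAT2 2.0.1, featureCounts 2.0.0, SAMtools 1.10, fastp 0.20.0 and DESeq2 (no version named) on GRCm38; settings and use of strand are not given in the sources used here.

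The values used were the authors' deposited tables of ruxolitinib, palbociclib and the combination against vehicle. The deposited base mean is the authors' signal per gene: reads divided by a size factor and averaged over the 24 libraries of their fit, 12 of which are not of these groups. Per the file headers, DESeq2 gave the log2 fold change with its error, and the score is the authors' Wald statistic. The deposited p-value is that of the Wald test, and the adjusted p is the authors' Benjamini-Hochberg value after their own filter on low counts. Nothing was refitted.

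Size factors were read from genes with a single read. Each gene's vehicle level and dispersion were solved from its 3 deposited errors for all 11939 genes (numpy 2.4.6, pandas 2.3.3, scipy 1.17.1, Python 3.11.15, figures with matplotlib 3.10.9). On simulated counts 99.98% were solved, all within 1% of the vehicle level fitted to those counts. The solver's starting points there included that level, and the errors came from the same formula. This run therefore does not check how accurate the modelled levels are. Intervals cover counting error and the modelled spread. Differences from palbociclib were tested by dividing the difference of log2 fold changes by its error, with squared errors added, 2-sided normal, Benjamini-Hochberg over all genes tested. On simulated data with 11939 genes this found 46 of 100 changes of 2-fold and 89 of 100 of 4-fold with 0 unchanged genes called, and with recovered variances 69 and 93 with 5 unchanged genes called (2.99% of calls). The true share of false calls in the deposited tables is not known.

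Named genes were the 20 largest rises and falls, the 10 smallest adjusted p each way, up to 4 genes each way per list, and all sort, JAK, STAT and SOCS genes; any other gene was picked with its values in view, and some genes are not reported here. The members and lists were chosen with earlier results of these data known. Coordinates and types came from GENCODE mouse release 21, which held 55227 of the identifiers (99.5%), and start-site windows from RefSeq for 77.6% of the genes described.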

Additional observations from a re-analysis of the deposited data

Results flagged for a closer look

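Cxcr2, the neutrophil chemokine receptor, is listed here because its effects under ruxolitinib and under palbociclib differed by a test of the difference itself. The difference of the log2 fold changes was -2.22 ± 0.55 (adjusted p = 0.0383), with -1.91 ± 0.39 under ruxolitinib and 0.31 ± 0.39 under palbociclib in the authors' deposited table. The combination had -0.96 ± 0.39 in the authors' deposited table. Other granulocyte markers also differed between the drugs. The late granule genes Ltf, Ngp and Camp had log2 fold changes of 7.94, 7.17 and 6.9 under palbociclib, against 0.02, 0.05 and 0.37 under ruxolitinib. They did not pass the test used for Cxcr2 but passed with recovered variances. Mpo and Prtn3 of the primary granules had -1.93 and -1.23 under palbociclib. Whether the Cxcr2 difference came with a difference in neutrophil content was not tested. How many libraries of a group carried the direction could not be counted from group values.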

How the results depend on the processing

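The tables hold values per group, so a change of library could not be tried: leaving out each replicate was not run, and whether 1 library decides a value is unknown. No paired analysis was possible because the columns carry no values per sample, so the replicate block was not run either. The counts of 127 higher and 275 lower became 51 and 112 at an adjusted p under 0.01, and 197 higher and 380 lower at 0.10. Adjusted over all genes with a p, without the authors' filter, they were 80 and 168, and at least 2-fold changes were 52 and 142. Under the other 6 settings tried (base mean of at least 10, of at least 200 or no minimum, adjustment over the genes at 50 or more alone, centring on the median, and protein-coding genes alone) they were 96 to 143 higher and 228 to 298 lower. Of the named genes 32 lost the call when adjusted over all genes, among them Lilr4b, Rhag, Ank1, Irs2, Cebpd, Procr, Cdkn1c, Gdf11, Sgms2, Lamp1 and Pecam1, because more genes were then tested. Genes that differed between ruxolitinib and palbociclib numbered 10, and 110 with a correlation of 0.5 between the estimates or 104 with recovered variances. Levels under about 50 in either group had wide intervals.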

Other observations

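Rises were spread over the chromosomes, but 11 of the 127 (8.66%) were on the X chromosome, against 391 of the 11939 genes described (3.27%) and 11 of the 275 falls (4.0%). Several of the X-linked rises belong to the Bex, Armcx and Mage families, small adaptor-like genes. Bex1 had 261 (169.5 to 402) normalised reads in ruxolitinib and 77.9 (50.02 to 121) in vehicle libraries. Mageh1 and Maged1 had 133 and 1395 in ruxolitinib and 46.5 and 716 in vehicle libraries, and Armcx6 had 354 and 210 in the same order of groups. Erdr1, which is annotated at the end of the chromosome, where X and Y share sequence, had 449 (230.3 to 875) in ruxolitinib and 78.5 (39.9 to 154.5) in vehicle libraries. This count was made after the values were seen, and the sex of the cells in each library was not tested.

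Tert, the telomerase enzyme, rose to 183 in ruxolitinib libraries, against 110.3 in vehicle libraries. Afp, the alpha-fetoprotein gene, rose to 176 in ruxolitinib libraries, against 70.0 in vehicle libraries. Gria3, a glutamate receptor subunit, fell to 911 in ruxolitinib libraries, against 2082 in vehicle libraries. Tert, Afp and Gria3 were picked after their values were seen. Atp1b2, a subunit of the sodium pump, fell to 345 in ruxolitinib libraries, against 2505 in vehicle libraries. It was among the 20 largest falls and is 1 of the 11 erythroid markers that fell.

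The T cell receptor gene segment Trbv13-2 had the smallest adjusted p of the genes described, 8.44e-09 in the authors' deposited table. Its level was 49.8 (37.2 to 66.8) in ruxolitinib and 209 (162 to 269.9) in vehicle libraries. The 1 T cell receptor constant gene described also fell. The T cell genes Cd4 and Cd8a had base means of 25.0 and 0.442.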
